A study of Homo sapiens with 12 samples.

Results

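The HOX genes described here were the 39 genes of the 4 human HOX clusters, chosen by name alone (HOXA, HOXB, HOXC or HOXD followed by a number) from the 62703 gene identifiers of the deposited count table. They comprised 11 genes of HOXA on chromosome 7, 10 of HOXB on chromosome 17, 9 of HOXC on chromosome 12 and 9 of HOXD on chromosome 2. The libraries were bulk RNA-seq of induced microglia-like cells (iMGLs) made from WTC11, a widely used human line of induced pluripotent stem cells. Clones J, K and L were wild-type (WT) and clones A, B and C were CRISPR knockouts of LACTB (LACTB KO), a mitochondrial enzyme. The libraries carried no added stimulus. Each of the 6 clones was taken through 2 differentiations, which the labels name as batches, so that there were 12 libraries and 3 clones per genotype. All clones passed through hematopoietic precursors made with the StemDiff kit and were cultured with IL34, TGFb and MCSF, then with CX3CL1 and CD200 in addition. A genotype is here 3 edited or unedited clones of 1 line, and the 2 libraries of a clone are not separate lines. Libraries are named by clone and differentiation, so that J-D1 is clone J in differentiation 1.

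HOX genes encode homeodomain transcription factors that give cells their position along the body axis. Within a cluster the genes lie in the order in which they are used along the axis, from anterior (low paralog numbers) to posterior (high numbers), and fibroblasts and other mesenchymal cells keep the HOX repertoire of their place of origin. In blood formation, HOXA and HOXB genes act in stem and progenitor cells and are turned down as cells mature, and microglia are macrophages of early embryonic origin. The paralog groups were taken here as anterior (1 to 3, 8 genes), central (4 to 8, 15 genes) and posterior (9 to 13, 16 genes).

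The 3 genes HOXA10, HOXA11 and HOXA13 at the posterior end of HOXA carried the clearest pattern below, and the bases before their RefSeq start sites are shown because these neighbours moved together. Each stretch holds the 250 bases before the start in GRCh38.p14, read 5′ to 3′ on the minus strand, from RefSeq. Capitals mark matches, on either strand, to any of 5 motifs searched, none of which overlapped another here: the box CCAAT, the E-box CACGTG, the posterior HOX motif TTTACGA, the joint PBX and HOX motif TGATTNAT and the TATA box TATAAA. The stretches lie at chr7:27179862-27180111 for HOXA10, chr7:27185233-27185482 for HOXA11 and chr7:27200092-27200341 for HOXA13.
HOXA10: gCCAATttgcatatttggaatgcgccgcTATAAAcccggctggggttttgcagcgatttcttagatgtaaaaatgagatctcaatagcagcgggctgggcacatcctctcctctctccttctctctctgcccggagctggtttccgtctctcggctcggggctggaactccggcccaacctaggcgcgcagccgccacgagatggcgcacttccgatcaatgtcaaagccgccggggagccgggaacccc
HOXA11: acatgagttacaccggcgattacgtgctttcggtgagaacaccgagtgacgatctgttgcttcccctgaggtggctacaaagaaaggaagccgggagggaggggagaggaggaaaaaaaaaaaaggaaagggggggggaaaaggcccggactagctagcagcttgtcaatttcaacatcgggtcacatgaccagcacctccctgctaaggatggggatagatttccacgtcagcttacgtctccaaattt
HOXA13: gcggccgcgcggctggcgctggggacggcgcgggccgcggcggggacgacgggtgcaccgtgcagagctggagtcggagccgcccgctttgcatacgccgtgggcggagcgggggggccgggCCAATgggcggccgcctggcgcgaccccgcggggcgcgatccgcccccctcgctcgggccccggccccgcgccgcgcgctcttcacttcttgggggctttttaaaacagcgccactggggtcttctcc

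The 3 stretches differed in base composition. The stretch of HOXA13 was 78.0% G and C with 40 CpG dinucleotides, the one shown for HOXA10 58.8% with 19, and that of HOXA11 51.6% with 11, against medians of 58.0% and 11 over all 35116 windows of the same length. CCAAT occurred once each before HOXA10 and HOXA13 and not before HOXA11, while 32.0% of all windows held it. TATAAA occurred once, before HOXA10, and in 10.7% of all windows. None of the 3 stretches held CACGTG (6.35% of all windows), TTTACGA (0.444%) or TGATTNAT (2.48%). The 3 genes therefore shared none of the 5 motifs in these stretches. RefSeq gives HOXA10 a further start with a window that is not shown, and both windows lie within the span of HOXA10 in GENCODE 44. The window not shown was 65.2% G and C with 24 CpG dinucleotides, and it also held CCAAT and TATAAA once each. The RefSeq table held 27 such windows for 20 of the 39 HOX genes, of which 18 windows contained CCAAT.

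HOX transcripts were rare in every library. Libraries held between 24153233 and 28406943 estimated counts, of which the 39 genes together took between 17 (C-D2) and 649 (J-D1). A level of 3 counts or fewer was treated as the floor and corresponded to 0.105 to 0.124 CPM (counts-per-million values, with library sizes scaled by TMM). No HOX gene was above the floor in all 12 libraries, 29 were above it in at least 1, and 20 reached at least 10 counts in at least 1. HOXC5 and HOXC12 had no count in any library, and HOXA6, HOXB1, HOXB8, HOXC9, HOXC13, HOXD3, HOXD4 and HOXD12 had between 1 and 3 counts in their highest library. For these 10 genes expression was not detectable above the floor at this depth.

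The edit was visible in the counts of LACTB, which were 71.6 to 98.1 CPM in WT libraries, 7.49 to 9.78 CPM in clones A and C, and 44.4 and 51.6 CPM in clone B. All 25 microglia and macrophage markers were above the floor in all libraries, with a summed level of 9636 to 12292 CPM, and CSF1R, the receptor that macrophages need to survive, had 37011 to 58200 counts. TMEM119 and SALL1, which mark microglia among macrophages, were low at 9 to 287 and 7 to 25 counts. These 2 markers were near the bottom of the list. Other microglia genes of the same list were far higher in every library, with 12679 to 29603 counts of CX3CR1, 3605 to 9070 of GPR34 and 1700 to 3558 of P2RY12. The labels call the cells iPSC-derived microglia.

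The cultures differed widely in COL1A1, a chain of the fibrillar collagen that fibroblasts and related cells make. In WT clones COL1A1 was 3678 CPM in J-D1 and 242 CPM in J-D2, 7.40 CPM in K-D1 and 2367 CPM in K-D2, and 208 CPM in L-D1 and 19.3 CPM in L-D2. In LACTB KO clones it was 49.4 and 17.0 CPM in A-D1 and A-D2, 48.6 and 446 CPM in B-D1 and B-D2, and 10.7 and 7.16 CPM in C-D1 and C-D2. With a cut at 100 CPM, 5 libraries were collagen-rich (J-D1, K-D2, B-D2, J-D2 and L-D1) and 7 were collagen-poor, and the rich ones comprised 4 of WT and 1 of LACTB KO. Because this cut was taken from the same libraries, the 2 kinds of library are described by their single values and were not tested against each other.

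Posterior HOX genes were above the floor in collagen-rich libraries only. Of the 16 posterior genes, 12 were above 3 counts in at least 1 collagen-rich library, and none of the 16 was above 3 counts in any of the 7 collagen-poor libraries. Among all 39 genes, 19 of the 29 that were above the floor anywhere were so in collagen-rich libraries alone, against 7.05% of the 23540 genes of the table above the floor anywhere. The opposite, above the floor in collagen-poor libraries alone, held for 2 HOX genes (HOXA2, with 4 counts in C-D1, and HOXD1, with 4 counts in A-D1) and for 7.29% of all genes. The shares of all genes were not matched to the HOX genes in level, and a gene far above the floor in all libraries cannot enter them. J-D1 and K-D2 supplied most of the 19 genes. HOXA5, HOXA7, HOXB13, HOXC4, HOXC10 and HOXC11 were above the floor in J-D1 alone, with 4 to 9 counts. Without those 2 libraries, 7 HOX genes, 4 of them posterior, were above the floor in collagen-rich libraries alone. The share of all genes was not computed without those 2 libraries, so this count has no background to be read against.

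Anterior genes did not follow the posterior ones. None of the 6 anterior genes above the floor anywhere was above it in collagen-rich libraries alone, 4 were above it in both kinds of library and 2 in collagen-poor libraries alone. Of the 11 central genes above the floor anywhere, 7 were above it in collagen-rich libraries alone and 4 in both kinds.

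**Figure D1:**
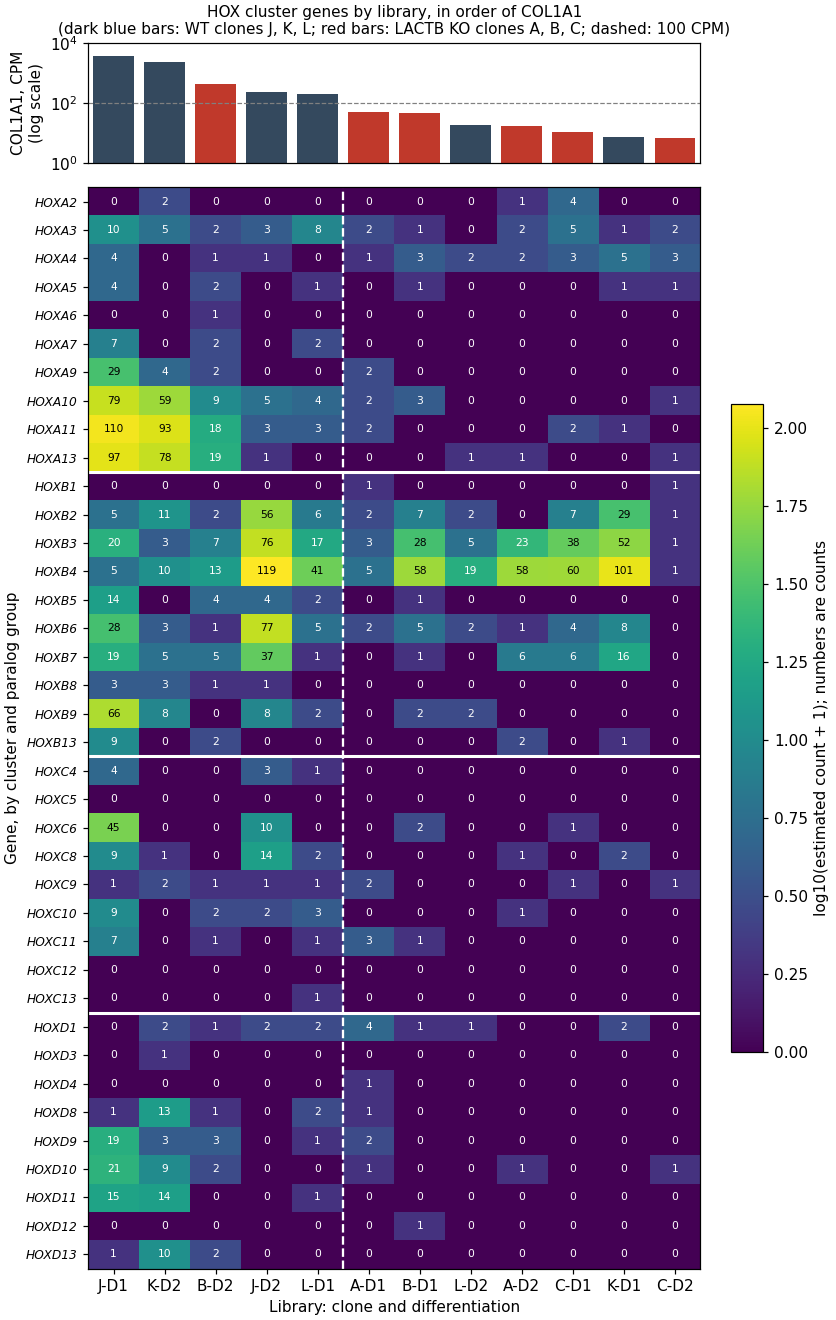
Estimated counts of 38 HOX genes (rows, by cluster and paralog group) in the 12 libraries (columns, in order of COL1A1, whose CPM is drawn above on a log scale), with colour giving log10 of the count plus 1 and numbers giving the counts. The bright blocks are HOXA10 to HOXA13 in J-D1 and K-D2 (59 to 110 counts) and HOXB3 and HOXB4 in J-D2, K-D1, B-D1, A-D2 and C-D1 (23 to 119 counts).

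The share of HOX counts that fell on posterior genes was highest in the 3 libraries with the most COL1A1. It was 71.3% in J-D1 (exact Clopper-Pearson 95% interval 67.7 to 74.8), 82.4% in K-D2 (77.9 to 86.3) and 58.7% in B-D2 (48.6 to 68.2). In the other collagen-rich libraries it was 4.57% in J-D2 (2.81 to 6.96) and 15.5% in L-D1 (9.27 to 23.6). These 2 libraries, the lowest of the rich ones in COL1A1, thus had a makeup dominated by anterior and central genes. In 5 of the 7 collagen-poor libraries the share was between 0.909% (K-D1) and 8.82% (L-D2), and it was 23.5% of 17 counts in C-D2 and 38.9% of 36 counts in A-D1, where no single posterior gene passed the floor. The intervals cover counting error only.

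By cluster, HOXA and HOXB changed places between the 2 libraries of clones J, K and B. HOXA took 71.2% of the HOX counts in K-D2, 53.8% in B-D2 and 53.6% in J-D1, whereas HOXB took 94.1% in K-D1, 87.9% in B-D1 and 86.3% in J-D2, the other libraries of the same clones. HOXB did not hold the majority in 2 collagen-poor libraries either. C-D2, the library with the least COL1A1, had 64.7% of its 17 HOX counts on HOXA (38.3 to 85.8) and 23.5% on HOXB, and A-D1 had 25.0% of 36 counts on HOXA and 36.1% on HOXB. HOXC was scarce, with 75 counts in J-D1, 30 in J-D2 and 0 to 9 elsewhere. HOXD reached 57 counts in J-D1 and 52 in K-D2, and 0 to 9 in the remaining libraries. J-D1 was the library with the most counts for HOXA, HOXC and HOXD, and J-D2 had the most for HOXB (378).

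**Figure D2:**
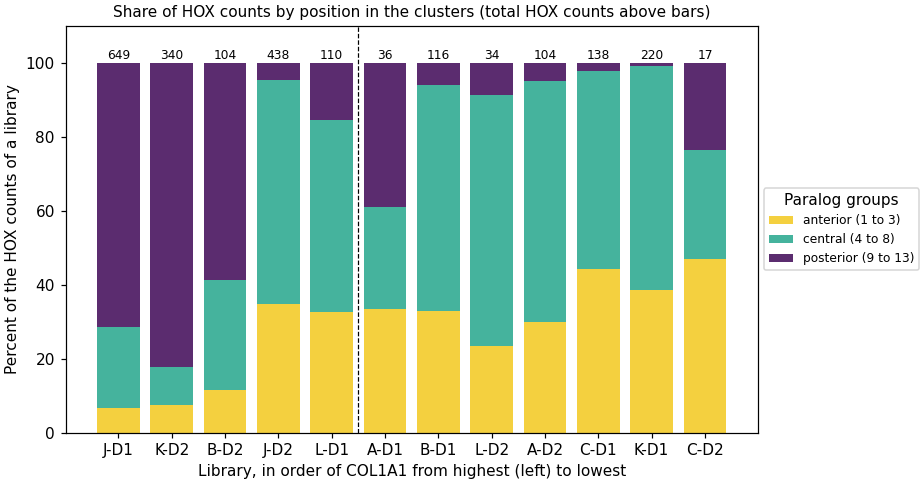
Percent of the HOX counts of each library that fell on anterior, central and posterior paralog groups, with libraries in order of COL1A1 and the total HOX count above each bar. Posterior genes took 71.3% (J-D1), 82.4% (K-D2) and 58.7% (B-D2) in the 3 libraries with most COL1A1, left of the dashed line that marks 100 CPM.

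HOXA11, HOXA10 and HOXA13 were the main posterior genes. HOXA11, a factor needed for the limb and the urogenital tract (chr7:27181157-27185232, minus strand, GENCODE 44), had 110 counts in J-D1, 93 in K-D2, 18 in B-D2, 3 in J-D2 and 3 in L-D1. In the collagen-poor libraries it had 0 to 2 counts. HOXA13, which patterns the distal limb and the hindgut (chr7:27193503-27200091, minus strand), had 97 counts in J-D1, 78 in K-D2 and 19 in B-D2. All other libraries held 0 or 1 count of HOXA13, J-D2 and L-D1 included. HOXA10, known from the uterus and from myeloid progenitors (chr7:27170605-27180261, minus strand), had 79 counts in J-D1, 59 in K-D2, 9 in B-D2, 5 in J-D2 and 4 in L-D1, and 0 to 3 in collagen-poor libraries. J-D1, K-D2 and B-D2 held the 3 highest values of all 3 genes, and the 3 libraries belong to both genotypes and both differentiations. Of the exon bases of HOXA11, 27.2% are shared with the antisense gene HOXA11-AS, and of those of HOXA10, 26.3% with HOXA10-AS and with a readthrough gene. The kit does not mark strand, so that reads from these stretches cannot be told apart; only 1.7% of the exon bases of HOXA13 are shared.

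HOXA9, a posterior gene of blood progenitors, had 29 counts in J-D1, 4 in K-D2 and 0 to 2 in every other library. It was outside the 4 highest HOXA genes and is given here because its neighbour HOXA10 was at 59 counts in K-D2.

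Within HOXB the 4 genes with the highest mean level per kb of exon were HOXB4 (0.744 CPM per kb), HOXB7 (0.194), HOXB6 (0.162) and HOXB2 (0.159). On that scale HOXB4 ranked first and HOXA11 (0.265) second of all 39 genes. HOXB4, a central gene that drives expansion of hematopoietic stem cells (chr17:48575507-48578350, minus strand), had 119 counts in J-D2 and 5 in J-D1, 101 in K-D1 and 10 in K-D2, and 41 in L-D1 and 19 in L-D2. In LACTB KO clones it had 58 counts in A-D2 and 5 in A-D1, 58 in B-D1 and 13 in B-D2, and 60 in C-D1 and 1 in C-D2. The 2 libraries of a clone thus lay far apart in every clone but L, and the ranges of the genotypes overlapped.

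HOXB3, which neighbours HOXB4 and was named after its values were seen, ran with it. It had 76 counts in J-D2 and 20 in J-D1, 52 in K-D1 and 3 in K-D2, 17 in L-D1 and 5 in L-D2, 23 in A-D2 and 3 in A-D1, 28 in B-D1 and 7 in B-D2, and 38 in C-D1 and 1 in C-D2. The higher library of each clone was the same for HOXB3 as for HOXB4 in all 6 clones. HOXB3 shares 11.7% of its exon bases with other genes, HOXB6 and HOXB4 among them, and HOXB4 2.2%.

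HOXB2, HOXB6 and HOXB7 were highest in clone J. HOXB2, an anterior gene of the hindbrain, had 56 counts in J-D2, 29 in K-D1, 11 in K-D2, 7 in both B-D1 and C-D1, 6 in L-D1 and 5 in J-D1, and 0 to 2 in the rest. HOXB6, a central gene expressed in erythroid progenitors, had 77 counts in J-D2 and 28 in J-D1, and 0 to 8 in the other 10 libraries. HOXB7, also central, had 37 counts in J-D2, 19 in J-D1 and 16 in K-D1, and 0 to 6 elsewhere. Clone J therefore had the highest library for each of the 3 genes, in the differentiation in which its COL1A1 was lower.

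HOXC and HOXD were mostly read in single libraries. HOXC6, a thoracic gene, had 45 counts in J-D1 and 10 in J-D2 and 0 to 2 in every other library, and HOXC8 had 9 and 14 counts in J-D1 and J-D2 and 0 to 2 elsewhere. HOXC10 had 9 counts in J-D1 and 0 to 3 elsewhere, and HOXC9 had at most 2 counts in any library. The HOXC genes above the floor were thus confined to clone J among these 12 libraries. Of the posterior HOXD genes, which pattern the limb, HOXD9 had 19 counts in J-D1 and 3 in K-D2, HOXD10 had 21 and 9, and HOXD11 had 15 and 14, with 0 to 3 counts of each in the other 10 libraries. HOXD1 had 4 counts in A-D1 and 0 to 2 elsewhere.

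J-D1 and K-D2, the 2 libraries with the most COL1A1, did not carry the same repertoire. J-D1 had 25 HOX genes above the floor and K-D2 had 13, of which 11 were above it in both. HOXB9 had 66 counts in J-D1 against 8 in K-D2, HOXC6 45 against 0, and HOXB5 14 against 0. HOXD8, by contrast, had 1 count in J-D1 and 13 in K-D2, and HOXD13, the most posterior HOXD gene, 1 and 10. The remaining genes above the floor were low, with HOXA3 at 10 counts, HOXB13 and HOXC10 at 9, HOXA7 and HOXC11 at 7 and HOXA4, HOXA5 and HOXC4 at 4 in J-D1. HOXA3 reached 8 counts in L-D1 and 5 in K-D2 and C-D1, and HOXA4 reached 5 in K-D1. J-D1 also stood apart in the sum of the epithelial markers, 232 CPM against 62.5 to 75.3 CPM in the other 11 libraries. The raised members were 2 keratins, KRT8 (3416 counts against 565 to 859) and KRT18 (2199 against 495 to 719). EPCAM (32 counts) and CDH1 (9 counts) lay within the range of the other libraries, 31 to 78 and 6 to 102. Whether the 2 keratins moved with the HOX genes of J-D1 was not tested.

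Within clones, HOXA10, HOXA11 and HOXA13 had positive slopes on COL1A1. The slope, as log2 change per doubling of COL1A1 with clone as a fixed effect, was 1.11 ± 0.16 (SE, 12 libraries) for HOXA11, 0.93 ± 0.14 for HOXA10 and 1.30 ± 0.24 for HOXA13. The edgeR quasi-likelihood test gave adjusted p = 0.00662 for HOXA11, 0.00968 for HOXA10 and 0.0241 for HOXA13. Of all 17335 genes tested, 2.67% were called, 2.5% with a positive and 0.162% with a negative slope. The 3 genes were the called ones of 9 HOX genes that passed the expression filter, a count that carries no weight, since these 3 reached 10 counts in J-D1, K-D2 or B-D2 alone and so passed through the libraries in which they were high. Without the filter 37 HOX genes were tested and the same 3 were called, against 2.08% of 36924 genes. That count carries no weight either, since the calls came from the same libraries. The genes added without the filter had low counts and could hardly be called. HOXD11 had a slope of 1.17 ± 0.27 and did not pass (adjusted p = 0.213). With the differentiation batch as a further term, the slopes were 1.08 ± 0.15 for HOXA11, 0.91 ± 0.14 for HOXA10 and 1.88 ± 0.21 for HOXA13, and all 3 were called.

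The counts behind these slopes were uneven across clones. In the library of a clone with more COL1A1 against the one with less, HOXA10, HOXA11 and HOXA13 together had 286 against 9 counts in clone J, 230 against 1 in clone K and 46 against 3 in clone B. They had 7 against 1 in clone L, 4 against 1 in clone A and 2 against 2 in clone C. Taken singly, HOXA11 was higher in the library with more COL1A1 in 6 clones and HOXA10 in 5. HOXA13 was higher there in 3 clones and lower in 3, clones L, A and C, with 0 against 1 count in each. Clones J, K and B thus showed the difference plainly, and clones A and C, where COL1A1 differed by 2.90 and 1.49 times, stayed at or near the floor. Clone L had few counts although its COL1A1 differed by 10.8 times, more than the 9.17 times of clone B. The size of the difference thus did not follow that of COL1A1 in every clone. With J-D1 and K-D2 both left out, none of the 9 genes then tested was called, HOXA11 had a slope of 2.24 ± 0.58 (adjusted p = 0.769), and that of HOXA13 was 0.80 ± 0.63 (adjusted p = 0.963). With only 1 of the 2 left out, HOXA11 alone of the 3 was called.

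**Figure D3:**
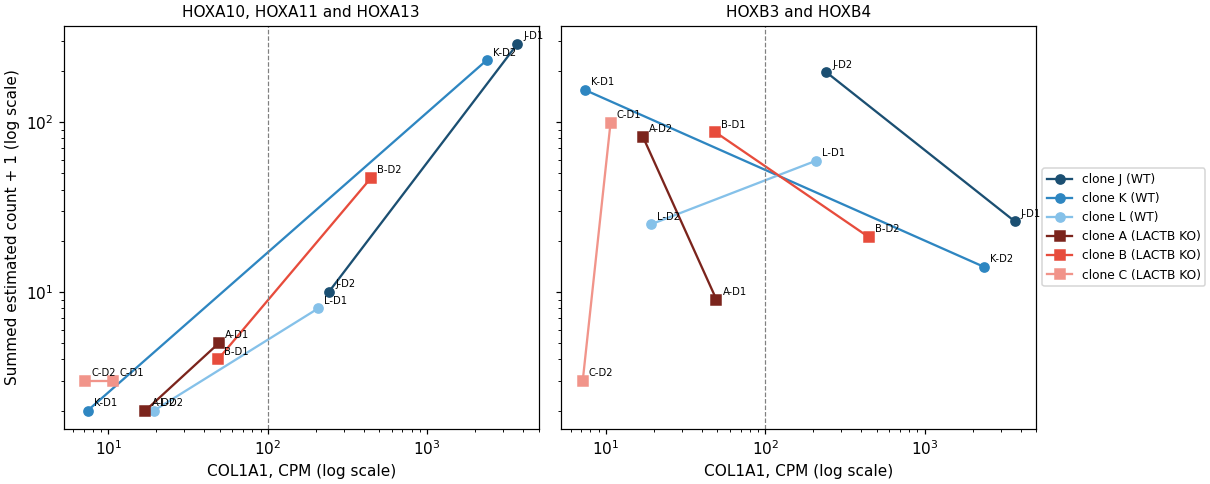
Summed estimated count plus 1 of HOXA10, HOXA11 and HOXA13 (left) and of HOXB3 and HOXB4 (right) against COL1A1 in CPM, both on log scales, with a line joining the 2 libraries of a clone and the dashed line at 100 CPM. On the left the lines of clones J, K and B climb from 1 to 9 counts to between 46 and 286, and on the right those of clones J, K, A and B fall while those of L and C rise.

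The HOXB genes had slopes of the other sign, none of which passed. The slope was -0.46 ± 0.22 for HOXB4 and -0.41 ± 0.19 for HOXB3, with adjusted p = 0.397 and 0.401. For HOXB2, HOXB6 and HOXB7 the slopes lay between -0.23 and -0.16. HOXB3 and HOXB4 together had 25 counts in the library with more COL1A1 against 195 in the one with less in clone J, 13 against 153 in clone K, 20 against 86 in clone B and 8 against 81 in clone A. The order was the opposite in clone L (58 against 24) and in clone C (98 against 2), although both libraries of clone C were among the 3 lowest in COL1A1. The low HOXB4 of C-D2 and A-D1 therefore came without COL1A1 above 100 CPM. The median slope of the 17335 genes was 0.000606.

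**Figure D4:**
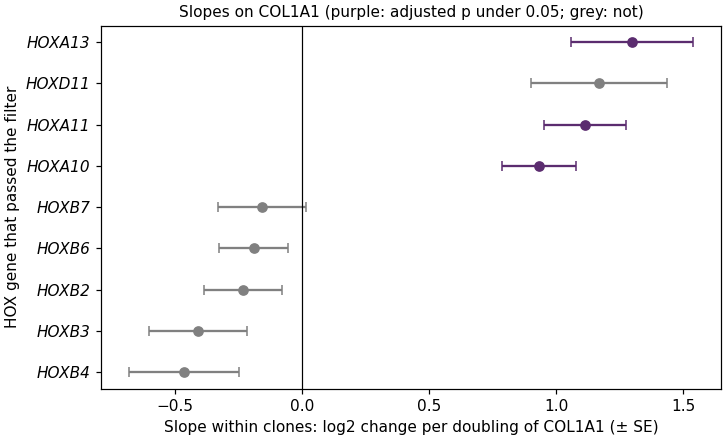
Slope within clones, as log2 change per doubling of COL1A1, with its SE, for the 9 HOX genes that passed the expression filter. HOXA10, HOXA11 and HOXA13 (purple, 0.93 to 1.30) had an adjusted p under 0.05, and HOXD11 and the 5 HOXB genes (grey) did not.

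Markers of fibroblasts and of smooth muscle moved with the same libraries. The 30 fibroblast and mesenchymal markers, collagens left out, summed to 2253 to 9392 CPM in collagen-rich and to 1431 to 1832 CPM in collagen-poor libraries. Of the 27 tested, 19 had a called positive slope on COL1A1, against 2.5% of all genes tested. In collagen-poor libraries the sum was mainly VIM (15498 to 24055 counts) and ENG (16349 to 20542 counts), which were high in all libraries. THY1 had 3 to 42 counts in collagen-poor and 56 to 1544 in collagen-rich libraries. The 14 smooth muscle and pericyte markers summed to 34.5 to 361 CPM and 10.8 to 26.6 CPM, with 9 of 12 called. Of the 30 and the 14 markers, 18 and 9 were above the floor in all libraries. Others passed the filter through libraries in which they were high. MFAP4 had 0 to 5 counts in collagen-poor libraries and up to 467 elsewhere, and LMOD1 0 to 2 and up to 76. The counts of calls in these lists are therefore description and not support. DCN, which encodes the fibroblast proteoglycan decorin, had 2236 counts in J-D1, 202 in J-D2, 32 in K-D2, 11 in B-D2 and 6 in L-D1 among collagen-rich libraries. Among collagen-poor ones it had 14 counts in B-D1, 3 in L-D2, 2 in A-D1 and 0 in K-D1, A-D2, C-D1 and C-D2, so that in clone B the order was opposite to that of COL1A1. DES, of muscle, had at most 2 counts. When the summary of the fibroblast list took the place of COL1A1, HOXA11 had a slope of 1.90 ± 0.27 (adjusted p = 0.00619). The list summed highest in K-D2 (9392 CPM), J-D1 (7860 CPM) and B-D2 (3031 CPM), the same 3 libraries that held most COL1A1. This fit is therefore not separate support. The part of fibroblasts and smooth muscle cells in the HOX counts was not tested, and in bulk RNA more cells of a type and more RNA per cell cannot be told apart.

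In each of the other cell type lists 0 to 2 genes were called, against 2.67% of all genes tested. The endothelial and neural lists lay above that share, each through 1 or 2 genes. The sums in collagen-rich against collagen-poor libraries were 9774 to 12292 against 9636 to 10632 CPM for microglia and macrophages, with 1 of 25 called, upward. They were 332 to 410 against 334 to 447 CPM for endothelial cells (2 of 8 called, upward), and 463 to 513 against 449 to 590 CPM for hematopoietic progenitors (0 of 12 called). The endothelial sum was mainly PECAM1 (8955 to 11253 counts), and CDH5 of the same list had 0 to 2 counts. KDR had 165 counts in J-D1, 65 in J-D2 and 1 to 6 elsewhere, and ERG 47 in J-D1, 39 in K-D2 and 0 to 8 elsewhere, which the sum does not show. CD34, which marks hematopoietic progenitors, had 0 to 10 counts. The sums were 19.0 to 44.02 against 17.7 to 31.5 CPM for neural markers (1 of 10 called, upward), 18.2 to 230 against 128 to 275 CPM for granulocytes, mast cells and basophils (0 of 3), 14.6 to 19.0 against 11.1 to 18.0 CPM for erythroid cells and megakaryocytes (0 of 6), and 10.2 to 30.4 against 13.5 to 17.1 CPM for pluripotent cells (0 of 2). Epithelial markers had 0 of 8 called. The sum for granulocytes, mast cells and basophils was mainly FCER1A (388 to 6758 counts) and KIT (46 to 778 counts).

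The cofactors that bind DNA together with HOX proteins were present in all cultures. Of the 9 TALE genes (PBX, MEIS and PKNOX), 6 were above the floor in all libraries, and their sum was 192 to 278 CPM in collagen-rich and 221 to 270 CPM in collagen-poor libraries. PKNOX2 was the only 1 of 8 tested that was called, with a slope of 0.74 ± 0.11 (adjusted p = 0.0093) and 71 counts in K-D2, 39 in J-D1 and 0 to 11 elsewhere. Collagen-poor libraries held 0 to 5 counts of PKNOX2. Like the called HOX genes, PKNOX2 passed the filter through libraries in which it was high, so the count of calls carries no weight. MEIS3 (0.40 ± 0.11, adjusted p = 0.142) and MEIS1 (0.10 ± 0.04, adjusted p = 0.361) did not pass, and MEIS1 had 90 to 219 counts in every library. The median slope of the list was 0.02.

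Transcripts that lie inside the clusters were as scarce as the HOX genes. Of 24 listed genes in the table, 12 had no count in any library, the 6 microRNA genes among them, which these libraries are not made to measure. HAGLR, in HOXD, and HOTAIRM1, at the anterior end of HOXA, were above the floor in all libraries, with 13 to 40 and 4 to 32 counts, and slopes of -0.07 ± 0.06 and 0.01 ± 0.13 (adjusted p = 0.6253 and 0.992). HOXA11-AS had 23 counts in J-D1 and 7 in K-D2 and 0 or 1 elsewhere. HOTAIR, transcribed from HOXC, had 13 counts in J-D1, 7 in both K-D2 and B-D2 and 4 in L-D1, and 0 or 1 in the other libraries. Both were named after their values were seen and did not pass the filter.

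No gene next to the clusters was called on COL1A1. Of 17 flanking genes in the table, 11 were tested and none was called, with a median slope of -0.02. The smallest p values were those of LNPK beside HOXD (-0.05 ± 0.01, adjusted p = 0.155), HIBADH beside HOXA (-0.05 ± 0.02, adjusted p = 0.27) and CALCOCO1 beside HOXC (0.06 ± 0.02, adjusted p = 0.291). Their counts were 1081 to 1492, 533 to 915 and 978 to 1963.

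Among 34 genes known to control HOX transcription, 2 of the retinoid pathway were called. CRABP2, which carries retinoic acid into the nucleus, had a slope of 0.81 ± 0.06 (adjusted p = 0.000217), with 461 counts in K-D2, 124 in J-D1, 50 in B-D2 and 2 to 9 elsewhere. RARB, a retinoic acid receptor, had a slope of 0.90 ± 0.09 (adjusted p = 0.00103), with 94 counts in K-D2, 79 in J-D1 and 0 to 14 elsewhere. In all 27 were tested, both calls were upward, and the median slope was 0.01. Other retinoid genes tested in the list, RARA, RARG, ALDH1A1 and ALDH1A3, were not called (edgeR adjusted p = 0.505 to 0.878). ALDH1A1 had a slope of -0.16 ± 0.15, with 2721 counts in J-D2 and 69 to 304 elsewhere. Of all genes tested, 2.5% were called with a positive slope. CRABP2 and RARB had at most 7 counts in any collagen-poor library. Like the called HOX genes, they passed the filter through libraries in which they were high. The count of calls in this list therefore carries no weight. EZH2, a methyltransferase of the Polycomb group, which silences HOX clusters, had a slope of -0.07 ± 0.03 (adjusted p = 0.321). CDX1, CDX2 and CDX4, which activate HOX genes in the early embryo, had 0 or 1 count in every library. The list of 55 transcription factors of mesodermal position had 22 genes tested, 2 called upward and a median slope of 0.44. SNAI2 (0.90 ± 0.13, adjusted p = 0.00621) and TWIST1 (1.03 ± 0.18, adjusted p = 0.0335), both of mesenchymal cells, were called, and HAND2 (0.64 ± 0.13, adjusted p = 0.0518) was not. In collagen-poor libraries SNAI2 had 0 to 3 counts and TWIST1 0 to 1. The same limit therefore holds for the count of calls in the mesodermal list.

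LACTB KO and WT clones were compared on the sum of the 2 libraries of each clone, 3 clones per genotype. HOXA11 summed to 113 counts in clone J, 94 in K and 3 in L among WT, and to 2 in A, 18 in B and 2 in C among LACTB KO. HOXA10 summed to 84, 59 and 4 in J, K and L and to 2, 12 and 1 in A, B and C, and HOXA13 to 98, 78 and 1 and to 1, 19 and 1. Clones J and K were high and clone L was with clones A and C, so that the genotypes overlapped for all 3 genes. The log2 fold change of LACTB KO over WT was -3.26 ± 1.17 (SE) for HOXA10, -3.23 ± 1.27 for HOXA11 and -3.05 ± 1.43 for HOXA13, with edgeR adjusted p = 0.735, 0.76 and 0.824. None of the 5 HOX genes tested was called, nor was any of the 17577 genes (0%), and an unadjusted p under 0.05 was found for 2 of the 5 and for 6.36% of all genes. DESeq2 called 171 genes and no HOX gene. With COL1A1 of each clone as a covariate, the 3 values changed sign, to 0.26 ± 0.54 for HOXA10, 0.66 ± 0.77 for HOXA11 and 1.51 ± 0.77 for HOXA13 (adjusted p = 1.00 each). HOXB4 summed to 124, 111 and 60 counts in WT and to 63, 71 and 61 in LACTB KO clones, and HOXB3 to 96, 55 and 22 and to 26, 35 and 39. Both had values below 0 (-0.57 ± 0.30 and -0.77 ± 0.52) that did not pass (adjusted p = 0.878 each). Within differentiation 1 alone the values were -0.24 ± 1.01 for HOXB4 and -0.36 ± 0.77 for HOXB3, and within differentiation 2 alone -1.07 ± 1.33 for HOXB4, while the other HOX genes did not pass the filter within a batch.

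No HOX gene was called between the differentiations, as tested within clones. The smallest p values were those of HOXB6 (log2 fold change of differentiation 2 over 1 of -0.85 ± 0.69, adjusted p = 0.782), HOXA13 (2.79 ± 2.28, adjusted p = 0.788) and HOXB3 (-1.23 ± 1.10, adjusted p = 0.808). HOXA13 was higher in differentiation 1 in clone J (97 against 1 count) and in differentiation 2 in clones K (78 against 0) and B (19 against 0). The clones thus moved in opposite directions from differentiation 1 to differentiation 2. Of 17335 genes, 0% were called, 9.13% had an unadjusted p under 0.05, and 0 of the 9 HOX genes tested had either. DESeq2 called 299 genes but gave none of the 9 HOX genes an adjusted p, so that none could be called there, and HOXA13 had an unadjusted p of 0.0274.

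No HOX gene was called for a change between differentiations that differed between genotypes either. HOXB6 (interaction of -2.21 ± 1.33), HOXB2 (-2.56 ± 1.73) and HOXA13 (4.86 ± 5.97) had the smallest p values, with an adjusted p of 1.00 each in edgeR. None of the 9 tested was called and none had an unadjusted p under 0.05, against 0% and 0.986% of all genes tested, and DESeq2 called 0 genes as well.

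No HOX gene was called between clones of 1 genotype against the spread between their differentiations. HOXB6 had the smallest p (unadjusted 0.0185, adjusted 0.444 by edgeR's quasi-likelihood F test over 4 contrasts), with 105 counts over both libraries in clone J against 11 in K, 7 in L, 3 in A, 6 in B and 4 in C. HOXB7 (adjusted p = 0.754) and HOXA13 (adjusted p = 0.755) followed. None of the 9 HOX genes was called, against 0.0404% of the genes tested, and 1 had an unadjusted p under 0.05, against 8.51%. HOXC6 and HOXC8, whose counts above the floor were all in clone J, did not pass the filter for this test. DESeq2 called 712 genes and none of the 8 HOX genes to which it gave an adjusted p.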

How the data were processed

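Per the labels and the study's methods, TruSeq version 2 libraries were read from both ends on a HiSeq2500 (150 bases), trimmed with Cutadapt 2.6, checked with FastQC 0.11.8 and aligned to hg38 with STAR 2.5.3a. The counting tool, its annotation and its strand setting are not given in the sources used here. The authors deposited an estimated count for every gene, made from the aligned reads, without normalization, and the columns of WT libraries carry another abbreviation than the labels. Between 10.8% and 11.5% of the values in a library were not whole, and all were rounded. The labels give collection on another day than the methods, by 1 day.

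Gene coordinates and exon lengths came from GENCODE 44, in which all 39 HOX genes were found under the same symbol. The members, gene lists, the cut of 100 CPM and the tests were chosen with earlier results of these data known. The study fitted DREAM, which was not used here. Tests were edgeR 4.0.16 quasi-likelihood fits in R 4.3.3 with TMM, filterByExpr and Benjamini-Hochberg adjustment over all genes tested, with a threshold of 0.05: genotype on clone sums, and differentiation, interaction, clone and slope on COL1A1 (log2 CPM, prior count 2) on 12 libraries. The slope describes 2 measures of the same libraries. The fits were run on simulated counts with a common dispersion and no added spread between the libraries of a clone. HOX counts varied far more within clones, so that check does not cover them. Alternatives used RLE size factors, no filter, DESeq2 1.42.0, limma 3.58.1 voom, each clone or library left out, each differentiation alone and other covariates. Values in every library were given for the 4 genes of a cluster with the highest mean CPM per kb of exon, fold changes for the 3 with the smallest p in a comparison, and list genes for the 3 with the smallest slope p. Other genes were named after their values were seen. A further gene that this rule names is not reported here.

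The differentiation number marks a batch in the labels. With genotype means removed, a WT and a LACTB KO library that shared a differentiation correlated by -0.467 to 0.579 (median 0.00787, 18 pairs), so the number was used as a block only in an alternative. Libraries were not duplicates, the closest pair (L-D2 and C-D2) differing by 7.94 times the sampling variance per gene. Counting intervals and floors cover counting error only, since reads carry no molecular identifiers.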

Additional observations from a re-analysis of the deposited data

Results flagged for a closer look

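In 33 groups of 6 libraries of 1 genotype, over named HOX genes, COL1A1 and the cluster sums, 1 library stood apart from the other 5 in 4 cases by Dixon's ratio of the gap to the range on the log2 CPM scale. Chance gives about 1 in 20 such groups. Among LACTB KO libraries B-D2 stood apart for HOXA13 (ratio 0.823), with 19 counts against 0 or 1, and for HOXA11 (0.667), with 18 against 0 to 2. B-D2 was also the LACTB KO library with the most COL1A1. Among WT libraries J-D1 stood apart for HOXD9 (0.626), with 19 counts against 0 to 3. HOXD1 in A-D1 (0.66) had 4 counts against 0 or 1, which is near the floor.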

How the results depend on the processing

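The number of HOX genes called was 0 in the genotype, differentiation, interaction and clone tests under all alternatives that gave HOX genes an adjusted p, which DESeq2 did not for differentiation (0 of 9), and 3 in the slope on COL1A1 under every one but these: it ran from 1 to 3 with a clone left out (1 without clone J or K, HOXA11, and 2 without clone B), was 1 without J-D1 and 1 without K-D2, and was 0 without both, an alternative chosen after seeing the data. Without J-D1 alone or K-D2 alone, the slope of HOXA10 had adjusted p = 0.0629 and 0.23, and that of HOXA13 0.138 and 0.323; without both, the slope of HOXA13 was 0.80 in place of 1.30 and that of HOXA11 2.24 in place of 1.11. The cut of 30 CPM put 20 HOX genes above the floor in collagen-rich libraries alone, in place of 19, and the share of all genes was not computed at that cut. With a floor of at least 10 counts, 20 in place of 29 HOX genes were above it in at least 1 library.

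With differentiation as replicate block over 12 libraries, 0 HOX genes were called for genotype and only HOXB3 and HOXB4 passed the filter (-0.87 ± 0.83 and -0.64 ± 0.89); the block changed no call. The genotype values changed sign with COL1A1 as covariate, to 0.26 for HOXA10, 0.66 for HOXA11 and 1.51 for HOXA13; the cause was not tested. With a clone left out they ran from -4.87 to -2.58, -5.00 to -2.67 and -5.67 to -2.44. The interaction value of HOXA13 ran from -2.43 to 10.6 with a clone left out and had no usable error without clone J. Without J-D1 and K-D2 only 2 HOX genes could be tested for genotype. The filter removed HOXA10 from the slope test without clone J, without clone K and without both libraries. Counts at or near the floor limit all statements on HOXC and HOXD.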

Other observations

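Some transcription factors of mesodermal position, outside the rule for named genes and chosen after their values were seen, also differed between the 2 libraries with the most COL1A1. MEOX1, a factor of somites, had 170 counts in J-D1, 6 in K-D2 and 0 to 7 in the other libraries. LHX9, of the gonad and the limb, had 2 counts in J-D1, 23 in K-D2 and 18 in B-D2, and 0 to 8 elsewhere. TBX4, a factor of the hindlimb and the lung, had 83 counts in J-D1, 35 in K-D2 and 0 to 9 elsewhere, while TBX5, its forelimb counterpart, had no count in any library. CYP26A1, which degrades retinoic acid, had 24 counts in J-D1, 10 in J-D2, 3 in B-D2 and 0 elsewhere.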
